A study of Mus musculus with 6 samples.

Results

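Heat shock proteins and their cochaperones were examined as a list of 40 genes, all of which were found by symbol among the 24063 rows of the count table and all of which passed the filter on low counts. The list holds the factors HSF1 and HSF2, small heat shock proteins, the HSP70 and HSP90 families, J-domain proteins, nucleotide exchange factors and HSP90 cochaperones. Most of the encoded proteins work in the cytosol, but those of Hspa9, Hspd1, Hspe1 and Trap1 work in mitochondria and that of Hspa13 is bound to microsomes, so the members are described here by role. Hspb1, Hsp90aa1 and Hsph1 were already known to differ between the groups of this series when the list was drawn up, so their differences are given as a description, with no test. The other 37 members were chosen by family, with results of this same comparison known.

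RNA was sequenced from diethylnitrosamine (DEN)-induced liver tumors of male mice labelled C57BL/6 (the study's methods give C57BL/6J for WT mice), 3 of them wild-type (WT, NR2E3+/+) and 3 lacking the orphan nuclear receptor NR2E3 in the whole animal (NR2E3-/-, written Nr2e3-/- here). Mice of both genotypes had received 25 mg per kg of DEN, a hepatocarcinogen, at 15 days of age, and the tumors were of the 24-week time point. Each of the 6 samples gave 1 library, and the sources used here, which give a commercial supplier for WT mice, do not name them as littermates of the Nr2e3-/- mice. The comparison asks which heat shock and cochaperone transcripts differ in tumors that form without NR2E3.

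Total counts were between 25250090 and 28690279 in the WT libraries and between 15376261 and 28336305 in the Nr2e3-/- libraries, with the lowest total in Nr2e3-/- replicate 1. Nr2e3 itself had 0 counts in all 6 libraries, which allows up to 0.105 to 0.195 CPM (counts scaled to a library of 1000000) by counting error alone, so its counts give no check of the genotypes. Hepatocyte markers were abundant in every tumor, with Alb between 83977 and 130181 CPM, and 6 markers of skeletal muscle, a tissue rich in small heat shock proteins, summed to at most 0.237 CPM. In tissue of mixed cells, fewer cells of a type and less RNA per cell cannot be told apart.

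Heat shock proteins are chaperones that bind unfolded proteins, keep them from aggregating and help them fold, and many are induced when proteins misfold. HSF1, the main factor of this response, binds heat shock elements, which are inverted repeats of the letters GAA, and HSP90 and HSP70 hold it inactive in unstressed cells. In liver, the abundant HSP90 and HSP70 proteins with their cochaperones fold kinases and nuclear receptors, and the transcripts of several heat shock genes follow daily rhythms of feeding and body temperature.

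RefSeq promoter windows from 250 bases before to 50 after each annotated start (GRCm38.p6) were at hand for 32 of the 40 members. They were searched for paired blocks (GAANNTTC or TTCNNGAA) and for triple blocks (GAANNTTCNNGAA or TTCNNGAANNTTC), which contain a pair by construction. Each paired pattern is its own reverse complement, and the triple patterns are reverse complements of each other, so that both strands are covered. A pair was found for 15 of the 32 members (46.9%) and for 14.3% of the 10177 tested genes with a window. A triple was found for 5 members (15.6%), namely Chordc1, Dnajb6, Hspd1, Hspe1 and Hsph1, and for 0.619% of those genes. In the following stretches, from 150 bases before to 30 after the start, matches are in capitals. Hspb1 and Hsph1 are shown as those of the 3 genes known beforehand that had a window. Chordc1 is shown for its long run of matches, and Hspe1 because its match is shared with its neighbor Hspd1.
Hspb1: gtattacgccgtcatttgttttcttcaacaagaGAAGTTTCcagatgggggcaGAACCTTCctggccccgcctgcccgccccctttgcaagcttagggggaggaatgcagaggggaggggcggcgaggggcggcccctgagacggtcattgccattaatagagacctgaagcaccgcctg
Hsph1: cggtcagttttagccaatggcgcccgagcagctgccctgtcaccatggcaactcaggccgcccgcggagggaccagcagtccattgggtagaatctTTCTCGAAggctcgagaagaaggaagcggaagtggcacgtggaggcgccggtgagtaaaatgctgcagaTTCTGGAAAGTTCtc
Chordc1: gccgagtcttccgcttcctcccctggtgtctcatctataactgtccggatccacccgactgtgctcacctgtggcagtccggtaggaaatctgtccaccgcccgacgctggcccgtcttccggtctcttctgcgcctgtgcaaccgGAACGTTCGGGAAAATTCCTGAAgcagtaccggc
Hspe1: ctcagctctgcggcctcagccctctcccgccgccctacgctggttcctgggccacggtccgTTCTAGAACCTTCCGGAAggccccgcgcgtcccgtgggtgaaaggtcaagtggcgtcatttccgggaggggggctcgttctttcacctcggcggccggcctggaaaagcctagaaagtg

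These stretches lie at chr5:135887769-135887948 (plus strand) for Hspb1, chr5:149636286-149636465 (minus strand) for Hsph1, chr9:18292117-18292296 (plus strand) for Chordc1 and chr1:55087998-55088177 (plus strand) for Hspe1. Hspb1 carried a pair of separate matches, from -117 to -110 and from -97 to -90 relative to the start used here. In Hsph1 a pair lay from -54 to -47 and a triple from 16 to 28 after the start. Counted from the start of the other Hsph1 window, the same matches lay from -33 to -26 and from 37 to 49. The longest match of Chordc1 ran over 23 bases, from -4 to 19, and a further pair lay from 34 to 41, past the stretch shown. Hspd1 and Hspe1 lie on opposite strands, and their annotated genes overlap at their starts. The run of 18 bases from -89 to -72 of Hspe1 is also the match in 1 of the 2 Hspd1 windows. The other Hspd1 window, at chr1:55088194-55088493, held no match. Such letters describe the windows only, and binding of HSF1 was not measured.

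Hspb1 encodes the small heat shock protein HSP25, which holds unfolded proteins in a soluble state. It lies on chromosome 5 (135887919 to 135889563, plus strand, GRCm38), and levels are given as CPM after trimmed mean of M-values (TMM) normalization. Values are listed in the order of replicates 1, 2 and 3 throughout. Hspb1 stood at 3.53, 4.02 and 3.92 CPM across the WT tumors and 11.4, 13.2 and 16.4 CPM across the Nr2e3-/- tumors. The lowest Nr2e3-/- library was thus far above the highest WT library, and the means of 3.82 ± 0.259 CPM (SD, n = 3) and 13.7 ± 2.49 CPM (SD, n = 3) differed 3.58-fold. The inducible cytosolic HSP90, Hsp90aa1 on chromosome 12 (110690605 to 110702728, minus strand), was at 41.03, 36.1 and 29.1 CPM across the WT tumors and 97.3, 104 and 120.2 CPM across the Nr2e3-/- tumors. Its means were 35.4 ± 5.99 CPM (SD, n = 3) in WT and 107 ± 11.7 CPM (SD, n = 3) in Nr2e3-/- tumors, a 3.03-fold difference. Hsph1 on chromosome 5 (149614287 to 149636376, minus strand) encodes HSP105, which recharges HSP70 with ATP. It was at 95.1, 84.00 and 60.6 CPM in WT against 226, 233 and 263 CPM in Nr2e3-/- mice, and its means of 79.9 ± 17.6 CPM (SD, n = 3) and 241 ± 19.7 CPM (SD, n = 3) differed 3.01-fold. For all 3 genes every Nr2e3-/- library lay above every WT library, and Nr2e3-/- replicate 3 was the highest.

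Of the other 37 members, 0 had a Benjamini-Hochberg adjusted p-value under 0.05 in edgeR, beside 0.0663% of the 13572 genes tested called higher and 0.0295% called lower, while 18 were higher and 3 lower at an unadjusted p-value under 0.05, with adjusted p-values from 0.0757 to 0.210. The corresponding shares of all genes tested were 11.8% higher and 9.72% lower. Separate groups were found for 23 of the 37, 19 higher and 4 lower in Nr2e3-/- tumors, beside 13.9% and 12.9% of all genes. With DESeq2, 14 of the 37 were called higher (4.93% of all genes) and 1 lower (3.07%) at an adjusted p-value under 0.05. With limma-voom, 14 were called higher (9.48% of all genes) and 2 lower (7.91%). The same 14 of the 37 were called higher by both tools. The edgeR fit without Nr2e3-/- replicate 1 called those 14 and 3 more of the 37 (12.2% of all genes) and 3 lower (9.65%), while leaving out any other 1 library gave 0 calls among the 37. Upper quartile in place of TMM normalization turned the unadjusted split of all genes from 1597 higher and 1319 lower to 1102 and 1782, and that of the 37 from 18 and 3 to 15 and 4.

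On the log2 scale, the median fold change was 0.44 over the 40 members and 0.39 over the 37, beside 0.0073 over all genes tested. Positive values were found for 35 members and negative ones for 5. Of the 37, 32 were positive and 5 negative, beside 6890 and 6682 of all genes tested. With upper quartile scaling, 28 and 9 of the 37 were positive and negative, beside 5510 and 8062 of all genes. Together the members took 0.401% to 0.433% of the counts in the WT libraries and 0.543% to 0.597% in the Nr2e3-/- libraries. These sums did not overlap, but they include the 3 genes chosen for this difference and weigh abundant members most. Nr2e3-/- replicate 3 was the highest of the 6 libraries for 23 of the 40 members, and WT replicate 3 was the lowest for 20. Among the WT libraries alone, replicate 1 was the highest for 27 members.

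**Figure D1:**
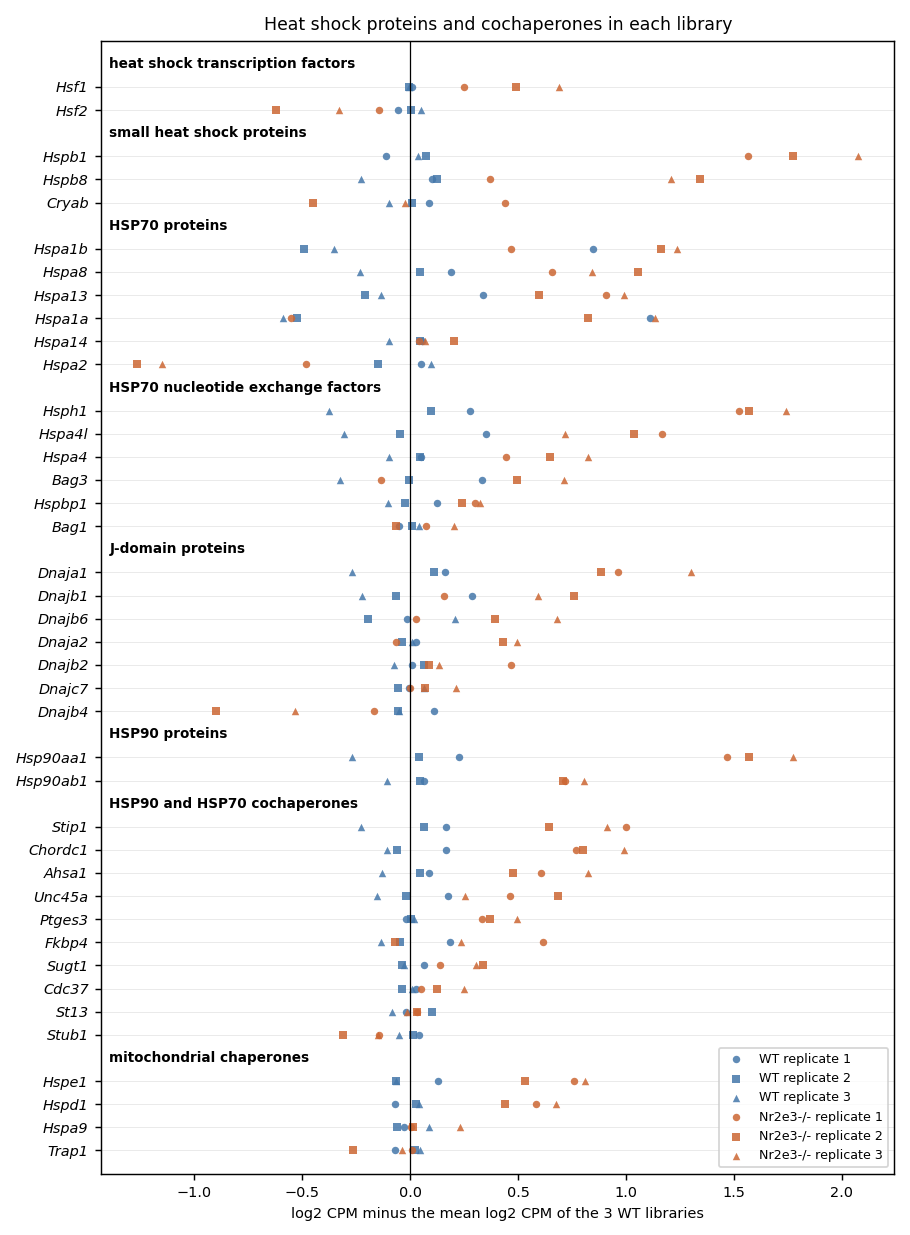
Log2 CPM of the 40 members by role, each minus the mean of the 3 WT libraries, with WT libraries in blue and Nr2e3-/- libraries in orange and the marker shape giving the replicate. The orange points of Hspb1, Hsp90aa1 and Hsph1 lie between 1.47 and 2.08, while those of Bag1, St13, Hspa9 and Trap1 fall among or near the blue points.

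The heat shock transcription factors differed in direction. Hsf1, on chromosome 15, was nearly constant in WT tumors and stood at 13.9, 13.8 and 13.8 CPM across the WT tumors and 16.5, 19.4 and 22.4 CPM across the Nr2e3-/- tumors, a log2 fold change of 0.49 (SE 0.14, adjusted p = 0.132 from edgeR). Each Nr2e3-/- value exceeded each WT value, and the call passed with DESeq2 (adjusted p = 0.0497). Hsf2, which forms complexes with HSF1, was at 29.02, 30.3 and 31.3 CPM in WT against 27.3, 19.6 and 24 CPM in Nr2e3-/- mice. All of its Nr2e3-/- values were below the WT values, with a log2 fold change of -0.36 (SE 0.14, adjusted p = 0.209 from edgeR). Hsf4, a further heat shock factor outside the 40 members, was at 7.98, 8.22 and 8.28 CPM across the WT tumors and 6.42, 4.94 and 4.70 CPM across the Nr2e3-/- tumors, a log2 fold change of -0.61 (SE 0.17, adjusted p = 0.130 from edgeR).

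Among the other small heat shock proteins, Hspb8, a partner of BAG3 in the removal of misfolded proteins by autophagy, was at 197, 201 and 157 CPM across the WT tumors and 238, 467 and 425 CPM across the Nr2e3-/- tumors. Its log2 fold change was 1.03 (SE 0.25, adjusted p = 0.116 from edgeR), and the groups did not overlap although replicate 1 lay well below the other Nr2e3-/- libraries. Cryab, which encodes αB-crystallin, was at only 2.57, 2.43 and 2.25 CPM in WT against 3.31, 1.74 and 2.38 CPM in Nr2e3-/- mice. The groups overlapped, and its log2 fold change of 0.017 (SE 0.27) turned negative with upper quartile normalization, with limma-voom and without Nr2e3-/- replicate 1. Cryab overlaps Hspb2 on chromosome 9.

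The HSP70 genes showed different patterns. Hspa8, the constitutive HSC70 on chromosome 9, was at 239, 217 and 179 CPM across the WT tumors and 331, 436 and 377 CPM across the Nr2e3-/- tumors, a log2 fold change of 0.85 (SE 0.16, adjusted p = 0.0930 from edgeR). Every Nr2e3-/- library exceeded every WT library. By contrast, the stress-inducible HSP70 genes Hspa1a and Hspa1b, which lie next to each other on chromosome 17, were low and variable. Hspa1b stood at 16.97, 6.66 and 7.35 CPM in WT against 13.04, 21.2 and 22.3 CPM in Nr2e3-/- mice, so that WT replicate 1 lay above Nr2e3-/- replicate 1 and the groups overlapped, with a log2 fold change of 0.87 (SE 0.39, adjusted p = 0.248 from edgeR). Hspa1a had 1.65, 0.473 and 0.451 CPM in WT against 0.463, 1.34 and 1.68 CPM in Nr2e3-/- mice, with overlapping groups and a log2 fold change of 0.47 (SE 0.64, adjusted p = 0.686 from edgeR). For both genes, replicate 1 was the highest of the WT libraries. Reads of this pair are hard to assign, since 62.3% of the 50-base stretches of the Hspa1b transcript also occur in Hspa1a, and 296 of the 300 bases of their promoter windows were identical.

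Hspa13, whose product is bound to microsomes, was at 78.2, 53.5 and 56.3 CPM across the WT tumors and 116, 93.6 and 123 CPM across the Nr2e3-/- tumors, with separate groups and a log2 fold change of 0.82 (SE 0.18, adjusted p = 0.1 from edgeR). Hspa2, the HSP70 best known from male germ cells, was lower, at 4.84, 4.19 and 4.99 CPM in WT against 3.31, 1.89 and 2.05 CPM in Nr2e3-/- mice. All Nr2e3-/- values were below the WT values, and the log2 fold change was -0.97 (SE 0.26, adjusted p = 0.126 from edgeR). Its DESeq2 adjusted p-value was 0.0229. Hspa14, an HSP70 of the ribosome, overlapped between the groups at 19.7, 19.5 and 17.7 CPM across the WT tumors and 19.5, 21.8 and 19.8 CPM across the Nr2e3-/- tumors.

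Nucleotide exchange factors release ADP from HSP70 so that it lets go of its client. Beside Hsph1, this group holds its relatives Hspa4 and Hspa4l, and Bag1, Bag3 and Hspbp1. Hspa4 was at 180.4, 179.9 and 163 CPM across the WT tumors and 237, 273 and 309 CPM across the Nr2e3-/- tumors, a log2 fold change of 0.65 (SE 0.13, adjusted p = 0.0936 from edgeR). Hspa4l had 34.3, 25.97 and 21.7 CPM in WT against 60.4, 55.2 and 44.1 CPM in Nr2e3-/- mice, with a log2 fold change of 0.96 (SE 0.20, adjusted p = 0.0963 from edgeR). In both the groups were separate. Hspbp1 had separate groups as well, at 16.3, 14.7 and 13.9 CPM across the WT tumors and 18.4, 17.7 and 18.7 CPM across the Nr2e3-/- tumors, but a small log2 fold change of 0.29 (SE 0.11, adjusted p = 0.206 from edgeR). Bag3, the partner of HSPB8, was at 75.96, 60.1 and 48.1 CPM in WT against 54.9, 85.2 and 99.1 CPM in Nr2e3-/- mice. Nr2e3-/- replicate 1 lay below WT replicates 1 and 2, and the groups overlapped, with a log2 fold change of 0.38 (SE 0.25, adjusted p = 0.402 from edgeR). Bag1 was at 77.6, 80.9 and 82.6 CPM across the WT tumors and 84.5, 76.8 and 92.5 CPM across the Nr2e3-/- tumors and overlapped too, with a log2 fold change of 0.074 (SE 0.11) that became slightly negative with upper quartile normalization.

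J-domain proteins deliver clients to HSP70 and start its ATPase. Dnaja1 was at 90.05, 86.9 and 66.8 CPM across the WT tumors and 157, 149 and 199 CPM across the Nr2e3-/- tumors, a log2 fold change of 1.05 (SE 0.17, adjusted p = 0.0885 from edgeR) with separate groups. Dnajb1, the partner of HSP70 in taking aggregates apart, was at 46.2, 36.2 and 32.5 CPM in WT against 42.3, 64.2 and 57.2 CPM in Nr2e3-/- mice. Here Nr2e3-/- replicate 1 was below WT replicate 1, and the log2 fold change was 0.51 (SE 0.19, adjusted p = 0.195 from edgeR). Dnaja2 and Dnajb6 were likewise above all WT libraries in Nr2e3-/- replicates 2 and 3 but not in replicate 1, with log2 fold changes of 0.31 and 0.39. Dnajb2 was at 54.4, 56.4 and 51.3 CPM across the WT tumors and 74.6, 57.5 and 59.2 CPM across the Nr2e3-/- tumors, with separate groups, the highest value in Nr2e3-/- replicate 1 and a log2 fold change of 0.24 (SE 0.13, adjusted p = 0.314 from edgeR). Dnajb4 was lower in every Nr2e3-/- library, at 56.5, 50.3 and 50.5 CPM in WT against 46.6, 27.98 and 36.1 CPM in Nr2e3-/- mice, and its log2 fold change was -0.51 (SE 0.18, adjusted p = 0.182 from edgeR). Dnajc7 overlapped between groups, with a log2 fold change of 0.096.

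The constitutive cytosolic HSP90, Hsp90ab1 on chromosome 17 (45567775 to 45573271), had the highest level of the list. It stood at 851, 842 and 756 CPM across the WT tumors and 1342, 1334 and 1423 CPM across the Nr2e3-/- tumors. The groups were well separated and narrow, with a log2 fold change of 0.74 (SE 0.12, adjusted p = 0.0875 from edgeR). Within each library, the ratio of Hsp90aa1 to Hsp90ab1 in CPM was 0.0482, 0.0429 and 0.0385 in WT and 0.0725, 0.0782 and 0.0844 in Nr2e3-/- tumors. This ratio, from genes chosen for their difference, describes an unequal change of the inducible and the constitutive gene. Likewise the ratio of Hsph1 to Hspa4 was 0.527, 0.467 and 0.371 in WT and 0.952, 0.853 and 0.852 in Nr2e3-/- tumors.

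**Figure D2:**
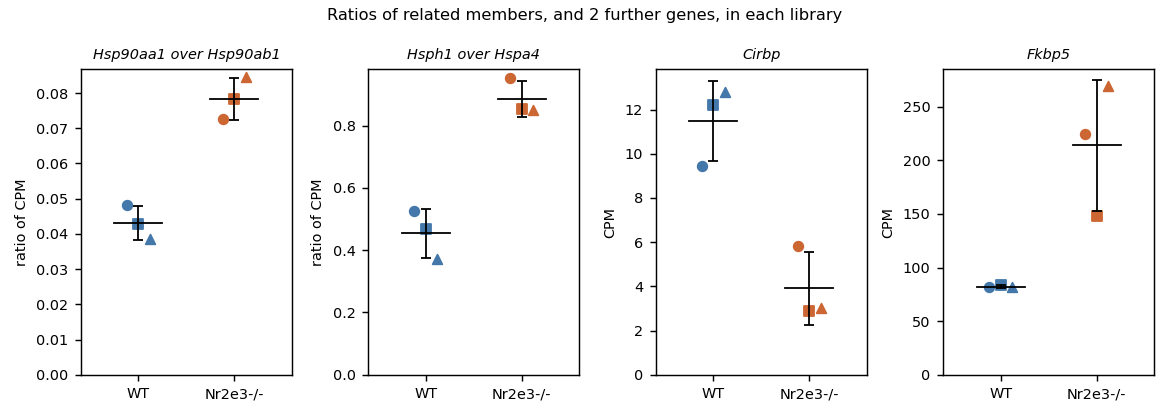
Ratio of CPM of Hsp90aa1 to Hsp90ab1 and of Hsph1 to Hspa4, and CPM of Cirbp and Fkbp5, for each library, with the line and bars giving the mean and SD of 3 libraries and the marker shape the replicate. The groups are apart in all 4 panels, with Cirbp lower and the others higher in Nr2e3-/- tumors.

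Several cochaperones load, pace or unload HSP90. Chordc1, an HSP90-binding protein, was at 61.6, 52.7 and 50.9 CPM across the WT tumors and 93.5, 95.7 and 109 CPM across the Nr2e3-/- tumors, a log2 fold change of 0.85 (SE 0.12, adjusted p = 0.0757 from edgeR). Stip1, which bridges HSP70 and HSP90, was at 82.2, 76.5 and 62.6 CPM in WT against 147, 115 and 138 CPM in Nr2e3-/- mice, with a log2 fold change of 0.85 (SE 0.15, adjusted p = 0.0930 from edgeR). Ahsa1, the activator of the HSP90 ATPase, had 71.5, 69.5 and 61.5 CPM in WT against 103, 93.7 and 119 CPM in Nr2e3-/- mice and a log2 fold change of 0.64 (SE 0.13, adjusted p = 0.0930 from edgeR). In each of these 3 genes all Nr2e3-/- libraries were above all WT libraries.

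Smaller differences with separate groups were found for Ptges3, which stabilizes the closed form of HSP90, at 37.2, 37.8 and 38.2 CPM across the WT tumors and 47.6, 48.8 and 53.2 CPM across the Nr2e3-/- tumors, with a log2 fold change of 0.40 (SE 0.094, adjusted p = 0.109 from edgeR). Unc45a, a chaperone of myosin, was at 16.6, 14.5 and 13.2 CPM in WT against 20.3, 23.7 and 17.6 CPM in Nr2e3-/- mice, a log2 fold change of 0.48 (SE 0.15, adjusted p = 0.158 from edgeR). Sugt1, an HSP90 partner, had 27.3, 25.5 and 25.7 CPM in WT against 28.8, 33.1 and 32.3 CPM in Nr2e3-/- mice and a log2 fold change of 0.26 (SE 0.10, adjusted p = 0.210 from edgeR). Cdc37, which brings kinases to HSP90, differed least among the genes whose Nr2e3-/- values were all above the WT values, at 77.3, 73.8 and 76.3 CPM across the WT tumors and 78.5, 82.5 and 90.2 CPM across the Nr2e3-/- tumors, with a log2 fold change of 0.14 (SE 0.10, adjusted p = 0.416 from edgeR). Stub1, the ubiquitin ligase that tags chaperone clients, was lower in every Nr2e3-/- library, at 67.7, 66.6 and 63.6 CPM in WT against 59.7, 53.2 and 59.4 CPM in Nr2e3-/- mice. Its log2 fold change was -0.20 (SE 0.10, adjusted p = 0.274 from edgeR), and it overlaps Jmjd8, with which 32.95% of its 50-base stretches are shared. Fkbp4, an immunophilin of steroid receptor complexes, and St13, which steadies HSP70 with its client, overlapped between groups, with log2 fold changes of 0.28 and 0.013. That of St13 turned negative with upper quartile normalization.

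The mitochondrial members were split. Hspd1 and Hspe1 encode the folding chamber HSP60 and its lid HSP10. Hspd1 was at 179, 192 and 194 CPM across the WT tumors and 282, 255 and 301 CPM across the Nr2e3-/- tumors, a log2 fold change of 0.57 (SE 0.11, adjusted p = 0.0930 from edgeR). Hspe1 was at 31.1, 27.2 and 27.2 CPM in WT against 48.2, 41.2 and 50 CPM in Nr2e3-/- mice, a log2 fold change of 0.70 (SE 0.12, adjusted p = 0.0930 from edgeR). In both genes the Nr2e3-/- libraries were all higher than the WT libraries, with replicate 2 the lowest of the 3. Hspa9, the mitochondrial HSP70, was at 610.0, 597 and 662 CPM across the WT tumors and 625, 629 and 731 CPM across the Nr2e3-/- tumors and overlapped, with a log2 fold change of 0.086 (SE 0.12) that was just under 0 with upper quartile normalization. Trap1, the mitochondrial HSP90, was at 168, 179 and 182 CPM in WT against 177, 147 and 172 CPM in Nr2e3-/- mice and overlapped as well, with a log2 fold change of -0.094 (SE 0.11).

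**Figure D3:**
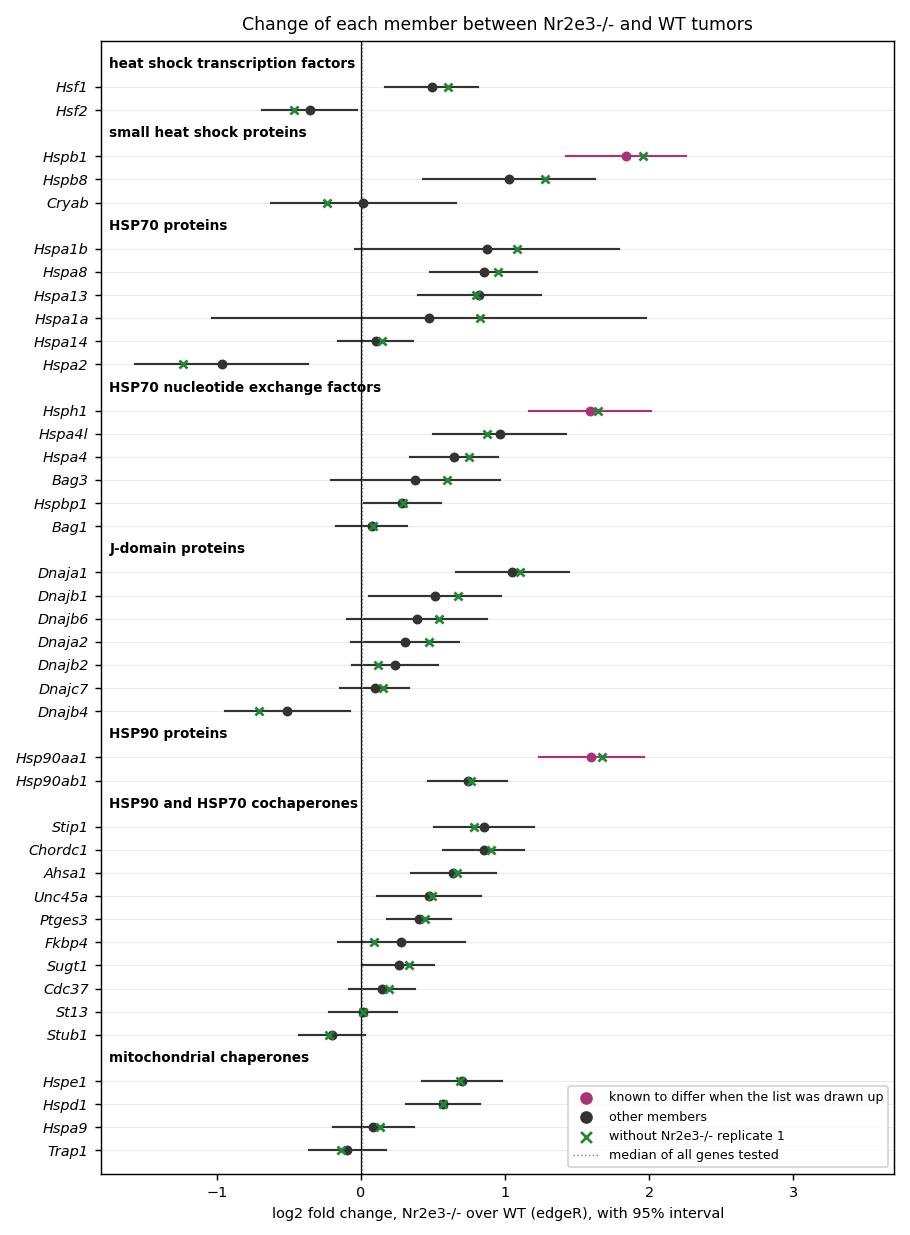
Log2 fold change of each member between Nr2e3-/- and WT tumors from edgeR, with its 95% interval as a line, the 3 genes known beforehand in purple, the value without Nr2e3-/- replicate 1 as a green cross and the median of all genes as a dotted line. Values run from -0.97 for Hspa2 to 1.84 for Hspb1, and the crosses of Hspb8, Dnajb1 and Bag3 lie to the right of their points.

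With the promoter letters at hand, the 15 members with a pair were centered on a log2 fold change of 0.57 (median) and the 17 without one on 0.29. Without Hspb1 and Hsph1 the first median was 0.47 over 13 members. The 5 members with a triple ranged from 0.39 for Dnajb6 to 1.59 for Hsph1. Members with a pair but low or negative values included Dnajb4, Stub1 and Cdc37, while Stip1, Ahsa1, Hspa4 and Hspa4l had separate groups and no pair in their windows. No window was at hand for Cryab, Hsf1, Hsp90aa1, Hsp90ab1, Hspa13, Hspa8, Hspa9 and St13. The groups were separate, with all Nr2e3-/- values above WT, for 8 of the 15 members with a pair and for 9 of the 17 without one. Without Hspb1 and Hsph1 the first count was 6 of 13. Of all genes tested, 13.9% were separate in this direction. These medians and counts were taken from the comparison that chose the list, and they are given without a test.

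**Figure D4:**
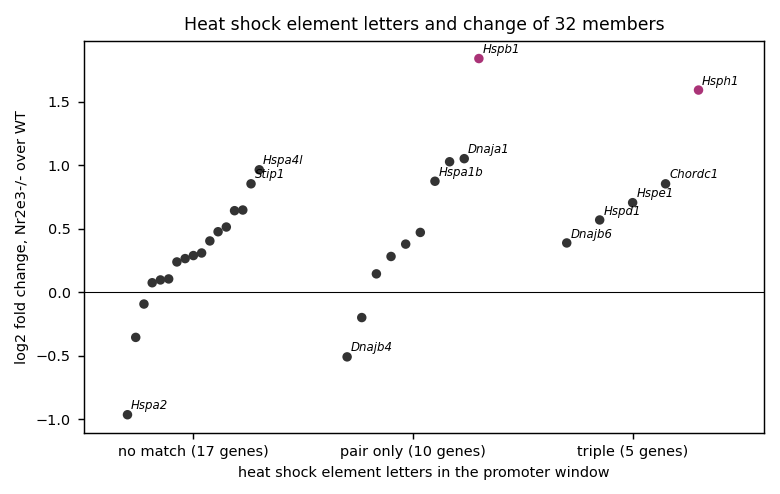
Log2 fold change between Nr2e3-/- and WT tumors of the 32 members with a RefSeq promoter window, by whether the window holds no match, pairs only or a triple, with 1 point per gene and the 3 genes known beforehand in purple where they have a window. The 5 points of the triple column all lie above 0.3, and the other columns reach below 0.

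Levels of different genes were compared as CPM per kb of annotated exon. In WT tumors Hsp90ab1 was highest with 272 CPM per kb, followed by Hspa9 with 145, Hspb8 with 94.9, Hspd1 with 71.4 and Trap1 with 68.5. The mitochondrial chaperones thus hold 3 of the first 5 places. Hspb1 was at 3.71 CPM per kb in WT and 13.3 in Nr2e3-/- tumors, so the member with the highest fold change stayed well below Hspb8 in both groups. The lowest level was that of Hspa1a, with 0.289 CPM per kb in WT. The inducible Hsp90aa1 reached 27.3 CPM per kb in Nr2e3-/- tumors, where Hsp90ab1 was at 456.

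**Figure D5:**
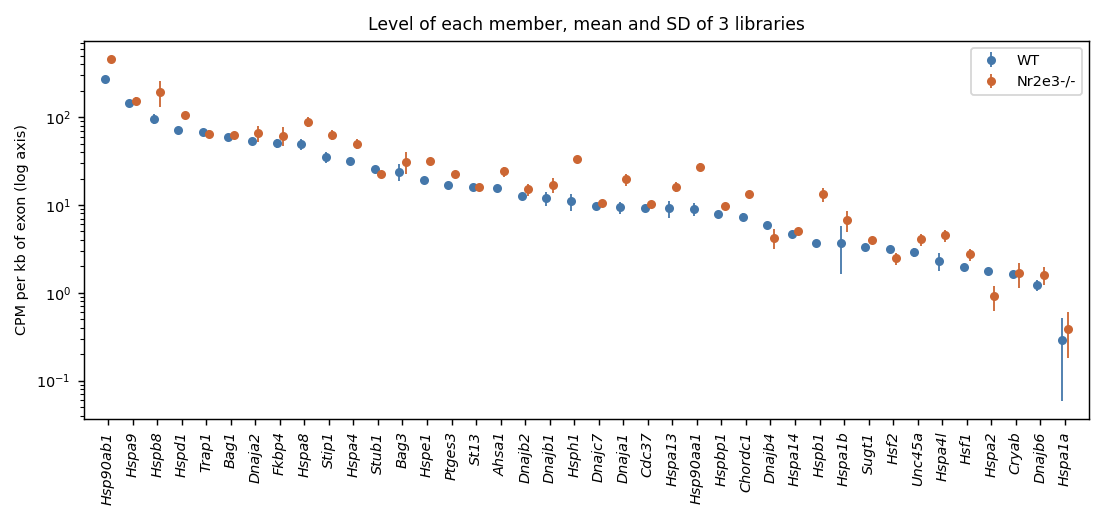
Level of each member in CPM per kb of annotated exon on a log axis, as the mean and SD of 3 libraries for WT in blue and Nr2e3-/- in orange, ordered by the WT level. Hsp90ab1 stands highest at 272 in WT and Hspa1a lowest at 0.289.

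Several of these counts can depend on how reads from copies were assigned, which is not given in the sources used here. Stretches of 50 bases shared with other annotated transcripts made up 58.5% of the Hsp90aa1 transcript, 52.7% of Hspa8, 51.6% of Hspb1 and 44.8% of Hspd1, mostly with processed pseudogenes that have no row in the count table. Hsph1, Hspa4, Hspb8 and Hsf1 shared 0% of their stretches. Of the 3 genes known beforehand, Hsph1 was thus the one without such a copy at this length.

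Related genes outside the 40 members were counted from lists of the same pathway. Of 40 tested cochaperones and J-domain proteins beyond the members, 10 were higher and 3 lower in Nr2e3-/- tumors at an unadjusted p-value under 0.05, beside 11.8% and 9.72% of all genes. The adjusted threshold was passed by 0 of the 40 in edgeR, and by 6 higher and 1 lower of 41 in DESeq2, beside 4.93% and 3.07% of all genes. Fkbp5, an immunophilin of steroid receptor complexes and a target of the glucocorticoid receptor, was at 81.7, 83.5 and 81.7 CPM across the WT tumors and 224, 148 and 269.5 CPM across the Nr2e3-/- tumors, with a log2 fold change of 1.38 (SE 0.21, adjusted p = 0.0844 from edgeR). All Nr2e3-/- values exceeded the narrow WT range. Grpel2, an exchange factor of the mitochondrial HSP70, was lower, at 42.5, 49.4 and 49.2 CPM in WT against 31.04, 29.5 and 33.3 CPM in Nr2e3-/- mice, with a log2 fold change of -0.59 (SE 0.11, adjusted p = 0.0930 from edgeR). The related Grpel1 had a higher mean of 109 CPM in WT and overlapped between groups, with a log2 fold change of 0.054 (SE 0.11, adjusted p = 0.800 from edgeR). Among 15 other HSF1-linked genes, 6 were higher and 1 lower at the unadjusted threshold (11.8% and 9.72% of all genes), Hsf4 being the lower one, and 0 passed the adjusted threshold in edgeR.

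The CCT chaperonin, the cytosolic folding chamber for actin and tubulin, showed small differences in 1 direction. All 8 subunits were higher in every Nr2e3-/- than in every WT library (13.9% of all genes), with log2 fold changes from 0.24 to 0.68 and a median of 0.36, and 5 of the 8 were called higher by DESeq2 (4.93% of all genes) but 0 by edgeR, where 8 had an unadjusted p-value under 0.05 (11.8% of all genes). Cct3 had the highest value, a log2 fold change of 0.68 (SE 0.12, adjusted p = 0.0930 from edgeR), followed by Cct7 with 0.54 (SE 0.11, adjusted p = 0.0997 from edgeR). Of the 6 subunits of prefoldin, which passes clients to CCT, only Vbp1 was higher at an unadjusted p-value under 0.05 (11.8% of all genes), and 0 were lower. Its log2 fold change was 0.35 (SE 0.11, adjusted p = 0.152 from edgeR). Pfdn6 had a log2 fold change of 0.28.

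Chaperones of the endoplasmic reticulum belong to the unfolded protein response rather than the heat shock response. All 14 had positive values and an unadjusted p-value under 0.05 (11.8% of all genes), with a median log2 fold change of 0.75. At an adjusted p-value under 0.05, 0 of the 14 were called higher by edgeR and 12 by DESeq2 (4.93% of all genes). Without Nr2e3-/- replicate 1, edgeR called 5 of the 14 (12.2% of all genes). Hspa5, the HSP70 of that compartment, was at 1799, 1278 and 1209 CPM across the WT tumors and 3006, 2558 and 3489 CPM across the Nr2e3-/- tumors, a log2 fold change of 1.08 (SE 0.20, adjusted p = 0.0930 from edgeR). Creld2, a target of that response, was at 82.9, 52.1 and 41.4 CPM in WT against 221, 125 and 248 CPM in Nr2e3-/- mice, a log2 fold change of 1.75 (SE 0.34, adjusted p = 0.0930 from edgeR). In both genes the groups were separate and WT replicate 1 was the highest WT library, as it was for 27 of the 40 members.

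Cirbp and Rbm3 encode RNA-binding proteins whose transcripts rise in mild cold and fall at higher temperature. Cirbp was at 9.44, 12.2 and 12.8 CPM across the WT tumors and 5.82, 2.89 and 3.03 CPM across the Nr2e3-/- tumors, a log2 fold change of -1.57 (SE 0.30, adjusted p = 0.0930 from edgeR). Rbm3 was at 14.3, 14.1 and 14.04 CPM in WT against 10.9, 12.95 and 10.9 CPM in Nr2e3-/- mice, a log2 fold change of -0.29 (SE 0.12, adjusted p = 0.236 from edgeR). In both genes all Nr2e3-/- libraries were below all WT libraries, although the difference of Rbm3 was small. Of 14 tested clock genes, 1 was higher and 2 were lower at an unadjusted p-value under 0.05, beside 11.8% and 9.72% of all genes, and 0 passed the adjusted threshold in edgeR. Without Nr2e3-/- replicate 1, 6 were called lower and 1 higher at the adjusted threshold (9.65% and 12.2% of all genes), and limma-voom called 3 lower and 1 higher (7.91% and 9.48%). Nfil3 was at 7.91, 9.13 and 9.78 CPM across the WT tumors and 13.2, 45.5 and 46.1 CPM across the Nr2e3-/- tumors, and Per3 at 37.1, 44.4 and 46.2 CPM in WT against 31.5, 17.5 and 13.3 CPM in Nr2e3-/- mice. For both, Nr2e3-/- replicate 1 lay nearest to the WT libraries. The time of day at which the tumors were taken is not given in the sources used here, and its part in the heat shock values was not tested.

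Markers of other cells were summed for each library. Hepatocyte markers summed to 121705 to 150359 CPM in WT and 107024 to 127341 CPM in Nr2e3-/- libraries, and the ranges overlapped. Bile duct markers summed to 57.2 to 119 CPM in WT and 69.0 to 429 CPM in Nr2e3-/- tumors, with Spp1 as the main part and the highest sum in Nr2e3-/- replicate 2. Immune markers ranged from 165 to 221 CPM and from 157 to 373 CPM, stromal markers from 226 to 236 CPM and from 143 to 239 CPM, and endothelial markers from 269 to 285 CPM and from 236 to 284 CPM. All of these ranges overlapped between the groups. Stromal markers overlapped only through Nr2e3-/- replicate 1, at 239 CPM, against 149 and 143 CPM in replicates 2 and 3. By edgeR with all 6 libraries, 0 of these markers passed the adjusted threshold. The smallest p-values belonged to Hnf4a (log2 fold change 0.50, adjusted p = 0.174) and Cps1 (0.43, adjusted p = 0.353) of hepatocytes, and to Epcam (1.58, adjusted p = 0.178) and Spp1 (1.68, adjusted p = 0.219) of bile ducts. Of 7 immune markers, 1 was higher and 1 lower at an unadjusted p-value under 0.05, beside 11.8% and 9.72% of all genes. The higher one was S100a8 (2.65, adjusted p = 0.134 from edgeR). The smallest p-values belonged among stromal markers to Dcn (-0.39, adjusted p = 0.254) and Col3a1 (-0.57, adjusted p = 0.445), and among endothelial markers to Lyve1 (0.82, adjusted p = 0.111) and Kdr (-0.61, adjusted p = 0.123). Without Nr2e3-/- replicate 1, edgeR called 2 bile duct, 1 hepatocyte, 1 immune and 1 endothelial marker higher (12.2% of all genes). That fit called 2 stromal and 1 endothelial marker lower (9.65%). With limma-voom the numbers were the same except for 1 bile duct marker (9.48% and 7.91%). DESeq2 called 1 bile duct, 1 immune and 1 endothelial marker higher (4.93%) and 1 endothelial marker lower (3.07%). The part of these markers in the values of the heat shock genes was not tested.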

How the data were processed

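Liver tumors of 3 WT and 3 Nr2e3-/- mice were profiled by RNA-seq, and each sample was placed in its group by its label. The submitters' processing notes name TopHat, Bowtie2 2.4.5, SAMtools 1.14, featureCounts and DESeq. Single-end reads had been aligned to mm10, and the authors deposited raw read counts per gene symbol. The strand setting, annotation and treatment of reads with several matches are not given in the sources used here. Further deposited tables, which hold normalized values and the authors' own comparison (fold changes and p-values), were not used.

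Counts were filtered with filterByExpr (minimum count 10, minimum total 15), scaled by TMM and tested in R 4.3.3 with the quasi-likelihood F test of edgeR 4.0.16, genotype being the only term. P-values were two-sided and adjusted by the Benjamini-Hochberg method over 13572 genes, and a gene was called at an adjusted p-value under 0.05. With 3 samples per group, p-values measure only the spread between these samples. An exact permutation test of 3 against 3 could not go below 0.1 and was not run. The test was checked on simulated counts. Alternatives were RLE and upper quartile scaling, DESeq2 1.42.0, limma 3.58.1 voom with quality weights, other filters, the replicate number as a block, and leaving out each library. Lengths and positions came from GENCODE (GRCm38), and 27 symbols that a spreadsheet had turned into dates were not among the members.

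The 40 members and the other gene lists were chosen with earlier results of these data known. Named were all members, with full values for those with an unadjusted p-value under 0.05 or separate groups and for Hsf1, Hspa8, Hsp90ab1, Hspa1a and Hspa1b. Of each other list the genes past the adjusted threshold, or else the pair with the smallest p-values, were named, and Cirbp, Rbm3 and Fkbp5 in any case. Alb and Grpel1 were named after their values were seen. Some items that this rule would name are not reported here.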

Additional observations from a re-analysis of the deposited data

How the results depend on the processing

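The direction and size of the members' median held in every alternative (log2 fold change 0.34 to 0.54 by scaling, tool or filter and 0.33 to 0.56 when leaving out a library), whereas counts of calls depended on the fit. Over all genes, 9 were called higher and 4 lower. Higher calls numbered 5 with upper quartile scaling, 675 with DESeq2, 1287 with limma-voom, 40 with no filter beyond 1 count, 4 with at least 10 counts in every library and 0 to 1687 when leaving out a library. Lower calls numbered 421, 1073 and 30 with DESeq2, limma-voom and no filter, and 0 to 1335 when leaving out a library. Of the 37 members not known beforehand, 0 were called higher in the edgeR fit, 14 with DESeq2 and with limma-voom, 2 with no filter (Dnaja1 and Chordc1), 17 without Nr2e3-/- replicate 1 and 0 without any other 1 library. With the 3 known genes, which were chosen for this difference, the counts were 3, 17, 17 and 5, and 0 to 20 when leaving out a library. Nr2e3-/- replicate 1 had the lowest depth and a voom weight of 0.338. Nr2e3-/- replicate 2, with 28336305 counts, also had a low weight of 0.508, while the remaining libraries had 1.26 to 1.69. Lower members numbered 1 with DESeq2 (Hspa2), 2 with limma-voom, 0 to 3 when leaving out a library, and 1 to 3 there at an unadjusted p-value under 0.05. The sign turned for Cryab with upper quartile scaling (-0.061), limma-voom (-0.083), at least 10 counts (-0.0024), the block (-0.013) and in part when leaving out a library (-0.23 to 0.23), for Bag1 with upper quartile scaling (-0.012), for St13 with upper quartile scaling (-0.072), limma-voom (-0.0072), at least 10 counts (-0.0043) and without WT replicate 3 (-0.032, with values up to 0.067 when leaving out another), and for Hspa9 with upper quartile scaling (-0.00057). Upper quartile scaling moved the median of all genes from 0.0073 to -0.079 and that of the members to 0.34. Triple in place of paired promoter blocks left 5 of 15 members, and the level of Hsp90ab1 was 324 CPM per kb of its longest transcript in place of 272. Of 519 alternative values of single members, 436 kept their direction and their side of the threshold, 53 passed it in addition, 18 no longer passed it and 12 changed sign. Depth limits Hspa1a most, with 144 counts over the 6 libraries. The cause was not tested.

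Replicate numbers are shared by the groups. Deviations from the group means of same-numbered samples correlated at -0.077, 0.22 and 0.023 for replicates 1, 2 and 3. Only replicate 2 correlated best with its own number in both groups. With 3 libraries per group these deviations are constrained, so they cannot show whether same-numbered samples share more than a number. With the replicate number as a block, edgeR called 0 genes higher and 0 lower, and 0 members. At an unadjusted p-value under 0.05 that fit had 18 members higher and 2 lower. Without the 3 genes known beforehand these were 15 and 2 of the 37, beside 1217 higher and 1221 lower of the 13572 genes tested.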
